A study of Mus musculus with 12 samples.

Results

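Macrophages in healing tissue release growth factors that act on neighbouring cells, and 6 of these genes were followed here: Igf1, Pdgfa, Pdgfb, Pdgfc, Hbegf and Vegfb. The 6 genes were taken by name, through a match of Ensembl identifiers to mouse symbols, from the 56941 genes counted by RNA sequencing. They were chosen with earlier results of these data known. All 6 had enough counts to be tested in every comparison. IL-4 moved all 6: Igf1, Pdgfa, Pdgfb and Hbegf rose and Pdgfc and Vegfb fell, in WT and in miR-210 KO cells. Over all genes tested, 18.4% were called as higher and 17% as lower with IL-4 in WT, and 14.3% and 14% in miR-210 KO. Between genotypes 1 of the 6 passed the test, Pdgfb, which was lower in miR-210 KO M2 cells. That call was lost in 3 of the 6 fits that left out 1 library. Over all genes tested, 0.98% were called between genotypes in M2 and 0.461% in M0.

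Bone marrow monocytes of WT mice and of miR-210 KO mice, all C57BL/6J, were isolated by magnetic negative selection. A culture of 7 days in 20% serum and 30% L929-conditioned medium, which supplies M-CSF, turned them into M0 macrophages. M2 cells then received IL-4 at 20 ng/mL for 72 hours and M0 controls did not. Both genotypes came from breeding heterozygous mice, whose deleted allele goes back to mice with a floxed miR-210 crossed to the Gata-1 Cre line. The deleted allele is inherited, so the deletion is not confined to macrophages, and the ages of the mice are not given in the sources used here. The 2 genotypes in M0 and in M2 made 4 groups, each with 3 stranded libraries of RNA depleted of ribosomal RNA. The labels do not say which libraries came from separate mice, so p-values measure the spread between these libraries. Since the batch label is another one in every group, effects of batch and of group cannot be told apart.

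The libraries held between 7930525 and 10167695 counts. Mir210, the gene of the deleted precursor, was at 0 counts in all 6 libraries of miR-210 KO cells, while WT held 1, 3 and 5 reads of it in M0 and 1, 2 and 1 in M2. The 8 macrophage markers, among them Csf1r, Adgre1 and Lyz2, were each above 3 counts in at least 1 library, and the M2 marker Retnla was at 0 counts in every M0 library and between 2161 and 4493 in the M2 libraries. Markers of other cells that make these growth factors were low: the 7 fibroblast markers summed to at most 2.49 CPM (counts scaled to 1000000 per library, with TMM normalization) in any library, with Pdgfra, Dcn and Lum at 3 counts or fewer throughout. The platelet and megakaryocyte marker Gp1bb was at 0 counts in all 12 libraries. In bulk RNA, fewer cells making a transcript and less transcript per cell cannot be told apart.

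As background, IGF-1 acts through the receptor Igf1r and is held in solution by binding proteins of the Igfbp family. PDGF chains pair into dimers that act on the receptors Pdgfra and Pdgfrb of fibroblasts, pericytes and smooth muscle, the A and B chains being cut inside the producing cell and the C chain activated outside it. HB-EGF is made as a membrane protein, is released by the protease ADAM17 and acts on Egfr and Erbb4, and VEGF-B acts on Flt1 with the coreceptor Nrp1. In IL-4-stimulated macrophages, IGF-1 is a known product of alternative activation.

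The deleted microRNA silences transcripts that pair with its seed, bases 2 to 8 of the mature strand. The mature sequence (RefSeq, GRCm38.p6, chr7:141221407-141221428, minus strand) is shown with the seed in capitals, above the only place in the coding transcripts of the 6 genes whose 7 bases, in capitals, pair with it fully:
mmu-miR-210-3p: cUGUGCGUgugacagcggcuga
Igf1 site: ggattacaACGCACAttttgctt
The site lies in the 3' UTR of Igf1 (GRCm39, chr10:87772532-87772554, plus strand) and is present in 14 of 18 coding Igf1 transcripts of the annotation. Pdgfa, Pdgfb, Pdgfc, Hbegf and Vegfb held no such match in any coding transcript. Over the genome, 2214 of 21594 protein-coding genes, 10.3%, held at least 1. The match is a description of letters only, and the difference of Igf1 between genotypes is given next.

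Igf1 (chromosome 10, 87693642 to 87772904, GRCm39) was by far the most abundant of the 6. Its levels were 753, 884 and 786 CPM in the WT M0 libraries and 818, 786 and 807 CPM in the miR-210 KO M0 libraries. With IL-4 they were 3561, 3664 and 3523 CPM in WT M2 and 3544, 3500 and 3418 CPM in miR-210 KO M2. Every M2 library lay above every M0 library, and the genotypes overlapped in both states. The rise was 4.45-fold in WT (log2 fold change 2.15, SE 0.08, adjusted p = 1.1e-10) and 4.34-fold in miR-210 KO (2.12, SE 0.07, adjusted p = 3.1e-10), both from the quasi-likelihood test of edgeR with Benjamini-Hochberg adjustment over all genes tested, as for every adjusted p here unless another tool is named.
Between genotypes the log2 fold change of Igf1, miR-210 KO against WT, was -0.0070 (SE 0.09, adjusted p = 0.99) in M0 and -0.03 (SE 0.04, adjusted p = 0.86) in M2. The fitted change was -0.487% of the WT level in M0 and -2.33% in M2, and the group means were 807 ± 68.1 and 804 ± 16.3 CPM in M0 and 3582 ± 72.8 and 3487 ± 64.0 CPM in M2 (WT and miR-210 KO, SD, n = 3).

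**Figure D1:**
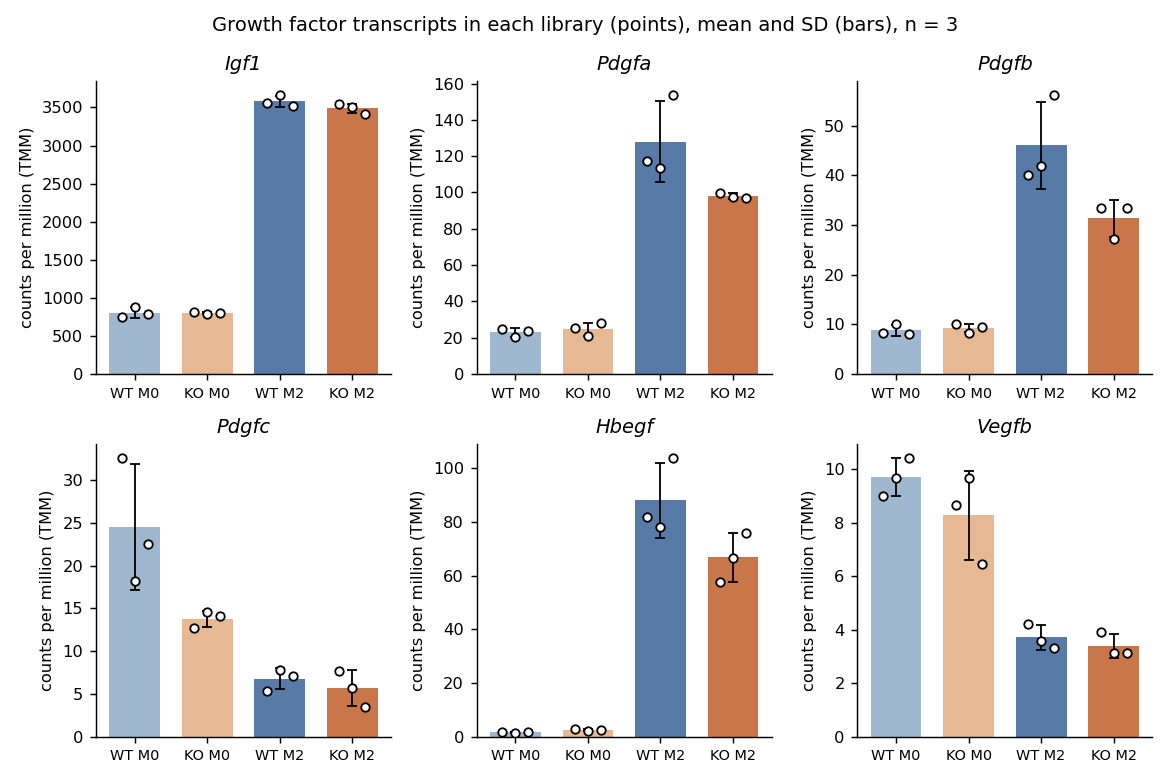
Levels of the 6 growth factor transcripts in CPM (TMM-scaled, linear axes from 0), 1 panel per gene; points are the 3 libraries of a group, bars the mean and whiskers the SD. Igf1, Pdgfa, Pdgfb and Hbegf are higher and Pdgfc and Vegfb lower in M2 than in M0, and the miR-210 KO M2 points of Pdgfa, Pdgfb and Hbegf lie below all WT M2 points. Of those genes only Pdgfb was called between genotypes in M2, and the share of all genes without such overlap was not counted.

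Pdgfa (chromosome 5, 138961758 to 138983435), which encodes the PDGF A chain, had 25.0, 20.2 and 23.9 CPM in WT M0 and 25.2, 20.9 and 28.0 CPM in miR-210 KO M0. In WT M2 it reached 117, 113 and 154 CPM, and in miR-210 KO M2 99.8, 97.4 and 96.7 CPM. The M0 genotypes overlapped, whereas every miR-210 KO M2 library lay below every WT M2 library. Here and below, a lack of overlap is a description with no test. How many of all genes lacked overlap in the same way was not counted. Polarization raised Pdgfa 5.59-fold in WT (log2 fold change 2.48, SE 0.12, adjusted p = 2.1e-09) and 3.97-fold in miR-210 KO (1.99, SE 0.11, adjusted p = 1.6e-08). In M2 the difference between genotypes was -0.38 on the log2 scale (SE 0.09, adjusted p = 0.066), which missed the threshold of 0.05. The DESeq2 Wald test, run as an alternative, gave an adjusted p of 0.032, and the edgeR fit of all 12 libraries gave 0.23. In M0 the difference was 0.10 (SE 0.13, adjusted p = 0.85).

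Pdgfb (chromosome 15, 79880009 to 79899181), the B chain and a recruiter of pericytes, was the member with a called difference between genotypes. It had 8.38, 10.1 and 8.0 CPM in WT M0 and 10.0, 8.36 and 9.54 CPM in miR-210 KO M0. In M2 the WT libraries held 40.1, 41.8 and 56.2 CPM and the miR-210 KO libraries 33.4, 27.1 and 33.5 CPM. All 3 miR-210 KO M2 libraries lay below all 3 WT M2 libraries, and the M0 groups overlapped. The means in M2 were 46.1 ± 8.83 CPM in WT and 31.3 ± 3.63 CPM in miR-210 KO (SD, n = 3), 1.47-fold lower in the fit (log2 fold change -0.55, SE 0.12, adjusted p = 0.038). Calls needed an adjusted p below 0.05 together with an absolute log2 fold change above 0.263, and by that rule 0.98% of the 13980 genes tested in M2 were called, 0.572% as lower in miR-210 KO. The call did not hold without WT M2 library 3 (log2 fold change -0.39, adjusted p = 0.18), which was the highest for Pdgfb, without miR-210 KO M2 library 1 (adjusted p = 0.096) or library 2 (adjusted p = 0.26), or in a fit of all 12 libraries (adjusted p = 0.083). In M0 the log2 fold change was 0.07 (SE 0.17, adjusted p = 0.93). From M0 to M2 Pdgfb rose 5.21-fold in WT (log2 fold change 2.38, SE 0.15, adjusted p = 2e-08) and 3.37-fold in miR-210 KO (1.75, SE 0.13, adjusted p = 3.6e-07).

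Pdgfc (chromosome 3, 80943668 to 81121473), which encodes the C chain, went the other way. Its levels were 32.6, 18.2 and 22.6 CPM in WT M0, 12.7, 14.5 and 14.1 CPM in miR-210 KO M0, 5.41, 7.78 and 7.17 CPM in WT M2 and 7.70, 5.74 and 3.50 CPM in miR-210 KO M2. WT M0 was the highest group, with no overlap with any other, and the M2 genotypes overlapped. Polarization lowered it 3.54-fold in WT (log2 fold change -1.83, SE 0.21, adjusted p = 8.5e-06) and 2.43-fold in miR-210 KO (-1.28, SE 0.22, adjusted p = 0.00048). In M0 the fitted level in miR-210 KO was 0.568 of WT (log2 fold change -0.82, SE 0.19, unadjusted p = 0.001 from edgeR), but the adjusted p was 0.10. The DESeq2 Wald test called it (adjusted p = 0.0067), and so did edgeR without WT M0 library 2 (log2 fold change -0.98, adjusted p = 0.0076). It was not called in the other 5 fits that left out 1 library, and without WT M0 library 1, the highest, the log2 fold change was -0.57 (adjusted p = 0.33). In that state 0.461% of the 14089 genes tested were called and none of the 6 members was. In M2 the difference was -0.26 (SE 0.23, adjusted p = 0.77).

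Hbegf (chromosome 18, 36637980 to 36649677), the gene of HB-EGF, had the largest change of the 6 with IL-4. M0 libraries held few reads of it, 15, 15 and 17 counts (1.90, 1.55 and 1.72 CPM) for WT and 27, 22 and 25 counts (3.0, 2.09 and 2.49 CPM) in miR-210 KO. M2 libraries held 81.8, 78.2 and 104 CPM in WT and 57.7, 66.6 and 76.0 CPM in miR-210 KO. The miR-210 KO libraries lay above all WT libraries in M0 and below all WT libraries in M2. The rise with polarization was 51.1-fold in WT (log2 fold change 5.67, SE 0.17, adjusted p = 1.6e-11) and 26.5-fold in miR-210 KO (4.73, SE 0.16, adjusted p = 3.4e-10). Neither genotype difference passed the test: the log2 fold change was 0.55 (SE 0.28, adjusted p = 0.56) in M0 and -0.39 (SE 0.11, adjusted p = 0.12) in M2.

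Vegfb (chromosome 19, 6958447 to 6965127), which encodes a VEGF family member that binds Flt1 and not Kdr, was at 9.01, 9.69 and 10.4 CPM in WT M0 and 8.67, 9.69 and 6.46 CPM in miR-210 KO M0. It was at 4.23, 3.58 and 3.34 CPM in WT M2 and 3.91, 3.13 and 3.12 CPM in miR-210 KO M2. The states did not overlap and the genotypes overlapped in each. It fell 2.60-fold in WT (log2 fold change -1.38, SE 0.17, adjusted p = 1.5e-05) and 2.44-fold in miR-210 KO (-1.29, SE 0.22, adjusted p = 0.00049). Between genotypes the log2 fold change was -0.23 (SE 0.18, adjusted p = 0.74) in M0 and -0.13 (SE 0.21, adjusted p = 0.90) in M2.

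Polarization thus moved 6 of 6 members past the test in each genotype, 4 up and 2 down. For polarization calls were limited to protein-coding genes whose average normalized count exceeded 10. By that rule 18.4% of 14266 genes were called as higher and 17% as lower in WT, and 14.3% of 14331 genes as higher and 14% as lower in miR-210 KO. The genes tested include noncoding and low-count genes that the rule could not call, so the shares among genes open to a call are higher. The median log2 fold change of the members was 2.27 in WT and 1.87 in miR-210 KO, against -0.0012 and -0.0078 over all genes tested. This is a description with no test, as the members were chosen with earlier results of these data known.

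**Figure D2:**
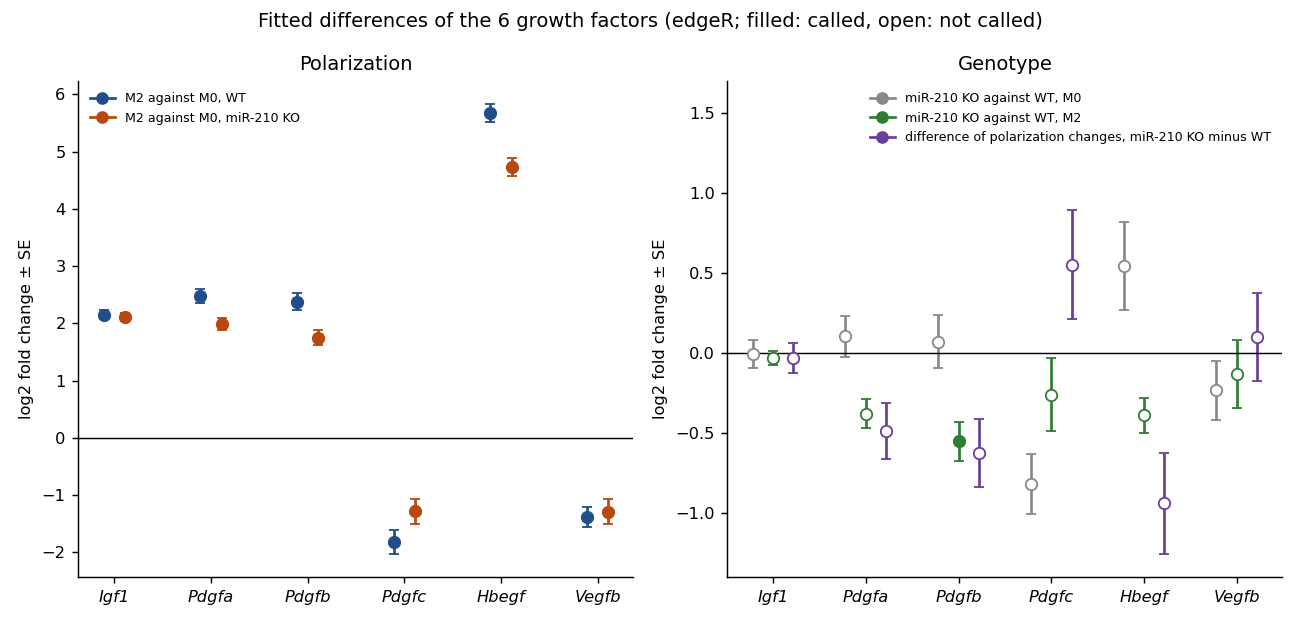
Fitted log2 fold changes with their SE for the 6 genes, polarization on the left and genotype on the right; filled points are called. On the right, green is miR-210 KO against WT in M2, where the filled point is Pdgfb at -0.55, grey the same contrast in M0, and purple the difference between the polarization changes of miR-210 KO and WT.

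Whether the response to IL-4 differed between genotypes was tested as an interaction over all 12 libraries, which are the libraries of the comparisons above. Pdgfa, Pdgfb and Hbegf had a smaller fitted rise in miR-210 KO, with interaction values on the log2 scale of -0.49 (SE 0.17), -0.63 (SE 0.21) and -0.94 (SE 0.32). Their unadjusted p-values from edgeR were 0.012, 0.0097 and 0.0085, and their adjusted p-values 0.36, 0.34 and 0.33. No member passed, and neither did any of the 14825 genes tested, 0% of them, although 1327 had an unadjusted p under 0.05 in edgeR and the DESeq2 Wald test called 83 genes, none of them a member. Without the filter on low counts, edgeR called Pdgfa (adjusted p = 0.032) and Hbegf (adjusted p = 0.041). Igf1 had an interaction of -0.03 (SE 0.09), Vegfb of 0.10 (SE 0.28) and Pdgfc of 0.55 (SE 0.34, adjusted p = 0.66).

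**Figure D3:**
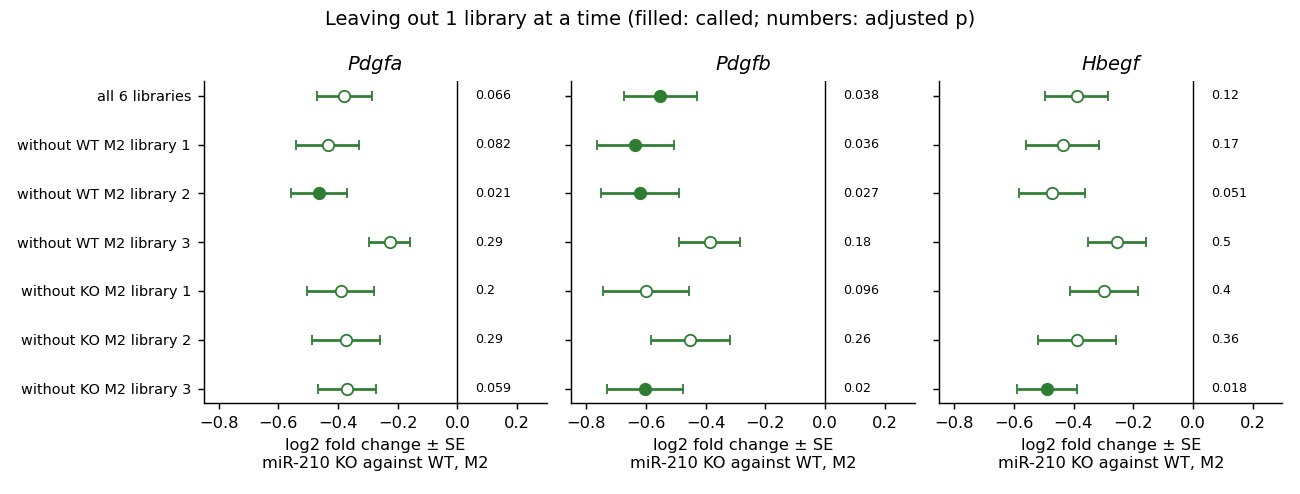
Log2 fold changes in M2, miR-210 KO against WT, with their SE (edgeR) for Pdgfa, Pdgfb and Hbegf when each of the 6 libraries is left out; filled points are called and the numbers are adjusted p-values. All values are below 0, and for each of the 3 genes the value nearest to 0 is the fit without WT M2 library 3 (-0.23, -0.39 and -0.25).

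WT M2 library 3 was the highest of its group for Pdgfa, Pdgfb and Hbegf. Without it the log2 fold changes between genotypes in M2 were -0.23, -0.39 and -0.25, with adjusted p-values of 0.29, 0.18 and 0.50, and 60 genes in place of 137 were called over all genes. The 3 members kept their sign in every fit that left out 1 library. Hbegf was called without miR-210 KO M2 library 3 (-0.49, adjusted p = 0.018) and Pdgfa without WT M2 library 2 (-0.46, adjusted p = 0.021). Each was called in only that 1 of the 6 such fits. Without miR-210 KO M2 library 1 or 2 the adjusted p was 0.40 and 0.36 for Hbegf, and 0.20 and 0.29 for Pdgfa. In the edgeR fit of all 12 libraries it was 0.20 for Hbegf.

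Levels of different genes were compared per length, as CPM per kilobase of all exons. In WT M0 Igf1 stood at 78.9 ± 6.65 (SD, n = 3), 21.6 times the next member, Pdgfc. With the longest transcript as length the next member was Pdgfa, and Igf1 stood 15.3 times above it. In WT M2 it stood at 350 ± 7.11, with Pdgfa at 18.9 ± 3.30, Hbegf at 17.2 ± 2.72, Pdgfb at 10.8 ± 2.08, Vegfb at 1.14 ± 0.143 and Pdgfc at 1.01 ± 0.184 CPM per kilobase (SD, n = 3). Levels of Pdgfa and Hbegf overlapped between libraries, as did Vegfb and Pdgfc, while neither Igf1 and Pdgfa, Hbegf and Pdgfb nor Pdgfb and Vegfb overlapped. The order of the means was the same in miR-210 KO M2, where Igf1 was at 341, Pdgfa at 14.5, Hbegf at 13.1 and Pdgfb at 7.38 CPM per kilobase. Hbegf thus moved from the lowest member in M0, at 0.337 CPM per kilobase in WT and 0.494 in miR-210 KO, to the third in M2. In M0 Pdgfc, Pdgfa, Vegfb and Pdgfb lay between 2.08 and 3.66 CPM per kilobase in WT, and between 2.06 and 3.66 in miR-210 KO.

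The closest pattern over the 12 libraries was sought among 11143 protein-coding genes, as the smallest root-mean-square difference of log2(CPM + 0.5) after centring each gene on its mean. This is a description with no test. Among the genes closest to Igf1 were Actn1 (0.10) and Slc25a13 (0.11), and Pdgfa was closest to Rnf19b (0.11), Alas1 (0.16) and Anxa1 (0.17). Nearest to Pdgfb were Mmp12, a macrophage elastase, at 0.17, then Emp2 and Alas1, both at 0.18. Mmp12 averaged 710 CPM in WT M0, 832 in miR-210 KO M0, 3124 in WT M2 and 2540 in miR-210 KO M2. Hbegf had Rras2 (0.20), Pkp2 (0.23) and Penk (0.24) as its nearest genes. In M0, Pkp2 and Penk had means of 0 CPM in both genotypes, and Rras2 of 0.510 CPM in WT and 0.722 in miR-210 KO. The added 0.5 therefore largely sets their M0 values on this scale. For Pdgfc these were Iigp1c (0.21), Ifi47 (0.21) and Gm5431 (0.22), and for Vegfb Sfxn4 (0.15), Nlrc5 (0.15) and Fyb1 (0.16).

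The receptors and partners of these factors were then followed in lists, described by their counts and medians. For polarization in WT, the counts called in each list stand beside 18.4% of all genes tested called as higher and 17% as lower. In miR-210 KO these shares were 14.3% and 14%. PDGF receptors were nearly absent, Pdgfra with at most 2 counts and Pdgfrb with at most 5 in any library. Egfr had at most 4 counts and Erbb4 0 in all 12 libraries (both looked at after values were seen, as receptors of HB-EGF). A count of 0 allows up to 3 counts, between 0.295 and 0.378 CPM depending on the library, and this covers counting error only. Igf1r, the IGF-1 receptor, was present, at 27.9 ± 4.59 CPM in WT M0 and 41.1 ± 2.43 CPM in WT M2 (SD, n = 3). It rose with IL-4 in WT (log2 fold change 0.56, SE 0.11, adjusted p = 0.00084) and in miR-210 KO (0.44, SE 0.14, adjusted p = 0.030), and the second call did not hold when library 1 or 3 of either miR-210 KO group was left out (adjusted p between 0.083 and 0.13).

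Of 18 other genes of the IGF axis, 6 were tested for polarization, and 3 rose and 2 fell in each genotype. The median log2 fold change was 0.27 in WT and 0.19 in miR-210 KO. Irs2, an adaptor of the IGF-1 and insulin receptors, rose in both (0.50, SE 0.08, in WT and 0.59, SE 0.10, in miR-210 KO). Igfbp4, which binds IGF-1 in solution, fell from a mean of 479 to 128 CPM in WT (log2 fold change -1.90, SE 0.14, adjusted p = 8.6e-08) and from 600.2 to 144 CPM in miR-210 KO (-2.06, SE 0.09, adjusted p = 2.3e-09). Igfbp6 fell as well from low levels, 2.47 to 0.441 CPM in WT and 2.84 to 0.268 CPM in miR-210 KO. Its calls did not hold without library 3 of either M0 group, for although the adjusted p was then 0.011 and 0.00034 the average count was not over 10. None of the tested genes of this list was called between genotypes.

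The PDGF axis list, with Furin, Plau and Lrp1 among its 4 tested genes of 10, moved in both directions in miR-210 KO. In WT 0 of the 4 were called, and in miR-210 KO Furin rose (0.38, SE 0.07) and Plau fell (-0.49, SE 0.13), both named after values were seen. The list medians were 0.00094 in WT and 0.08 in miR-210 KO on the log2 scale. In WT these genes had the same signs, Furin at 0.20 (adjusted p = 0.026, under the limit for a call) and Plau at -0.23 (adjusted p = 0.094). Their interactions had adjusted p-values of 0.55 and 0.73. Among 22 genes of the EGF family and HB-EGF release, 11 were tested for polarization. In WT 3 rose and 0 fell, and in miR-210 KO 5 rose and 0 fell. Cd9, a tetraspanin that binds the membrane form of HB-EGF, rose from 24.0 to 91.8 CPM in WT (log2 fold change 1.94, SE 0.08, adjusted p = 4e-10) and from 27.8 to 89.6 CPM in miR-210 KO (1.69, SE 0.09, adjusted p = 2.2e-08). Nrg1, an ErbB ligand, had 3 counts over the WT M0 libraries and 118 over the WT M2 libraries, a ratio of 41.4 (95% exact counting interval 13.8 to 203). In miR-210 KO it had 3, 1 and 5 counts in the M0 libraries and 54, 48 and 20 in the M2 libraries (log2 fold change 3.90, SE 0.51, adjusted p = 5.4e-05). Adam17, the protease that releases HB-EGF, was at 181 ± 23.3 CPM in WT M0 and 211 ± 6.26 CPM in WT M2 (SD, n = 3), with a log2 fold change of 0.22 (adjusted p = 0.042) that is under the limit for a call, and it was called in miR-210 KO (0.31, SE 0.10, adjusted p = 0.032). It too was named after values were seen.

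Flt1, the VEGF-B receptor, was the one partner gene called between genotypes. In M0 the WT libraries had 0, 1 and 0 reads of it and the miR-210 KO libraries 0, 0 and 2. In M2 it had 56.8, 51.7 and 80.7 CPM in WT and 35.8, 26.7 and 38.1 CPM in miR-210 KO, with no overlap. The difference in M2 was -0.91 on the log2 scale (SE 0.15, adjusted p = 0.0060), and WT M2 library 3 was again the highest. Without that library Flt1 was still called (-0.69, adjusted p = 0.014), and without miR-210 KO M2 library 2 it was not (log2 fold change -0.76, adjusted p = 0.087). Over the M0 libraries of a group the counts summed to 1 in WT and 2 in miR-210 KO, against 1628 and 854 in M2, ratios of 1710 (95% exact counting interval 307 to 67700) and 491 (135 to 4060). The interaction of Flt1 had an SE of 2.09 on the log2 scale and an adjusted p of 0.87, since M0 held almost no reads. Kdr, the main VEGF-A receptor and also listed as an endothelial marker, fell from 31.6 to 9.64 CPM in WT (log2 fold change -1.70, SE 0.13, adjusted p = 2e-07) and from 21.8 to 10.4 CPM in miR-210 KO (-1.07, SE 0.15, adjusted p = 0.00011). The other endothelial markers were low, with Tek, Emcn and Esam at 3 counts or fewer in every library. Nrp1 fell from 444 to 299 CPM in WT (-0.57, SE 0.08, adjusted p = 3.2e-05) and from 392 to 315 CPM in miR-210 KO (-0.31, SE 0.11, adjusted p = 0.038), and the latter call did not hold in 4 of the 6 fits that left out 1 library. In the VEGF list as a whole, 5 of 9 genes were tested for polarization, 1 rose and 3 fell in WT and 1 rose and 4 fell in miR-210 KO, with medians of -0.30 and -0.31.

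**Figure D4:**
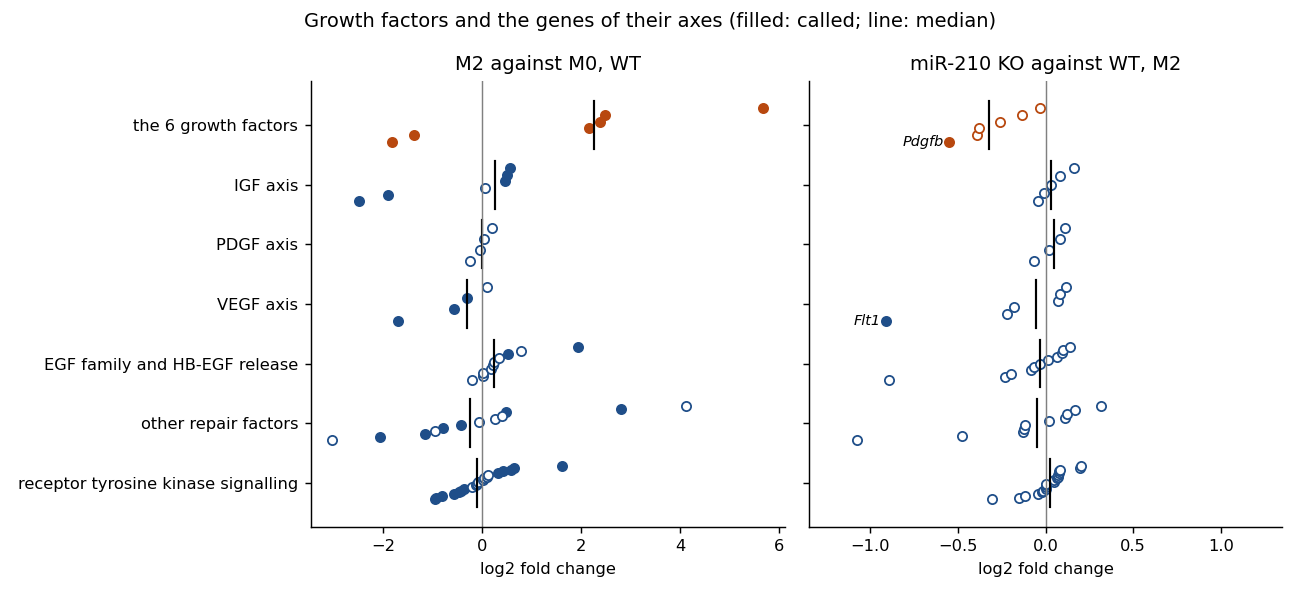
Log2 fold changes (edgeR) of the 6 growth factors (orange) and of the tested genes of 6 lists of receptors, partners and signalling genes (blue), M2 against M0 in WT on the left and miR-210 KO against WT in M2 on the right; each point is 1 gene, filled if called, and the black line is the median of the tested genes. Flt1 and Nrg1 are not drawn on the left because their WT M0 counts summed to 3 or fewer, but they enter the medians. On the right Pdgfb at -0.55 and Flt1 at -0.91 are the filled points.

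Other growth factors of repair moved in both directions. Of 16 listed, 12 were tested in WT, where 2 rose and 4 fell, and 11 in miR-210 KO, where 2 rose and 5 fell. Fgf2 rose from a mean of 0.442 to 3.16 CPM in WT and from 0.303 to 2.89 CPM in miR-210 KO (log2 fold changes 2.80, SE 0.40, and 3.18, SE 0.47). Its M0 libraries held only 4, 4 and 4 counts in WT and 3, 5 and 1 in miR-210 KO, so the size of its rise is uncertain. Gas6, a ligand of TAM receptors used in the uptake of dying cells, fell from 793 to 190 CPM in WT (-2.05, SE 0.09, adjusted p = 5e-10) and from 882 to 237 CPM in miR-210 KO (-1.90, SE 0.10, adjusted p = 1.1e-08). Osm fell by 1.14 (SE 0.17) on the log2 scale in WT, and in miR-210 KO its log2 fold change was -2.07 (SE 0.46), where 1 of the miR-210 KO M0 libraries held 53.9 CPM and the others 16.8 and 13.6. Without that library the log2 fold change in miR-210 KO was -1.19, and Osm was still called. Of 20 genes of receptor tyrosine kinase signalling, all tested, 5 rose and 7 fell in WT and 5 rose and 5 fell in miR-210 KO. Shc1, an adaptor of these receptors, rose from 68.6 to 209 CPM in WT (1.61, SE 0.08) and from 70.7 to 188 CPM in miR-210 KO (1.41, SE 0.09). Pik3cb rose by 0.65 (SE 0.08) and 0.40 (SE 0.11), the second not held without miR-210 KO M2 library 3 (adjusted p = 0.060). Between genotypes 0 tested genes of these 2 lists were called by edgeR in either state. The medians in M2 were -0.05 for the other repair factors and 0.03 for the signalling genes, against -0.32 for the 6 members and 0.0020 for all 13980 genes. Of the 6 members only Pdgfb was called there. Members and lists were chosen with earlier results of these data known, so these medians are a description with no test.

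Promoter windows of 300 bases (RefSeq, GRCm38.p6, 250 before and 50 after a start) were at hand for Igf1, Pdgfa, Pdgfc and Vegfb, 5 windows in all. The letters TTCNNNNGAA, a STAT6-type motif that reads the same on both strands, occurred in none of the 5 windows and in 6.95% of 32851 windows over the genome. Hence no letters are shown for them, and nothing about STAT6 is drawn from them.

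Markers that moved with the groups were as follows. The 5 platelet and megakaryocyte markers ran in sum from 3.75 to 5.77 CPM in WT M0, from 6.65 to 9.74 in miR-210 KO M0, from 10.5 to 11.3 in WT M2 and from 9.78 to 10.1 in miR-210 KO M2. Most of this was Ppbp, whose group means ran from 2.85 to 9.70 CPM, while Gp9 and Gp1bb had 3 counts or fewer in every library. The 7 fibroblast markers summed to 1.11 to 1.34 CPM in WT M0, 1.80 to 2.49 in miR-210 KO M0, 0.588 to 1.05 in WT M2 and 0.611 to 1.00 in miR-210 KO M2. The 5 endothelial markers, of which Kdr was the most abundant, summed to 29.0 to 38.2 CPM in WT M0 and 22.4 to 24.1 in miR-210 KO M0. In M2 they summed to 8.62 to 11.4 CPM in WT and 8.80 to 13.1 in miR-210 KO. The 8 neutrophil markers summed to 0.810 to 2.79 CPM in WT M0, 1.19 to 2.0 in miR-210 KO M0, 2.82 to 5.15 in WT M2 and 1.12 to 2.09 in miR-210 KO M2, so that in M2 the genotypes did not overlap, as for Pdgfa, Pdgfb and Hbegf. Its one member tested in M2, S100a8, had a log2 fold change of -1.18 between genotypes there (SE 0.28, adjusted p = 0.060), and 6 of the 8 markers had 3 counts or fewer in every library. Lymphocyte markers summed to at most 0.445 CPM and mast cell and basophil markers to at most 0.210 CPM, with Ly6g, Cd3e and Fcer1a at 0 throughout. The 8 macrophage markers summed to between 9087 and 10357 CPM in M0 and between 7570.3 and 8304 CPM in M2. The part of other cells in the values of the 6 growth factors was not tested beyond these levels. Arg1, the arginase of M2 macrophages, was already higher in M0 in miR-210 KO (72.9, 62.9 and 84.7 CPM) than in WT (50.6, 37.9 and 34.4 CPM), with a log2 fold change of 0.85 (SE 0.15, adjusted p = 0.034). That call was lost in 3 of the 6 fits without 1 library, those leaving out WT M0 library 3 or either of miR-210 KO M0 libraries 1 and 3.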

How the data were processed

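The 12 libraries were grouped by genotype (WT, miR-210 KO) and state (M0, M2), 3 to a group. Per the labels and methods, the authors trimmed reads with Trimmomatic, removed duplicates with Picard, aligned to GRCm39 with STAR, counted per gene and strand with featureCounts, and deposited the raw counts, 1 table per pair of groups. Removal of duplicate reads can lower the counts of abundant genes such as Igf1. The deposited normalized tables were not used. Columns name a group and a number that is not tied to a sample.

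Symbols came from GENCODE vM39 (GRCm39), which matched 56323 of 56941 identifiers. Tests used edgeR 4.0.16 in R 4.3.3 (quasi-likelihood, TMM, filterByExpr) within each pair of groups, and over all 12 libraries for the interaction, with Benjamini-Hochberg adjustment over all genes tested. SE is the size of the log2 fold change divided by the square root of F. CPM are counts scaled to 1000000 per TMM-adjusted library, set over all 12. Library pairs of a group differed beyond counting noise, so none was counted as a repeat. The scripts were tested on simulated data.

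The alternatives were the DESeq2 1.42.0 Wald test, DESeq2 size factors, no filter or at least 10 counts in every library of a group, a fit of all 12 libraries, a log2 fold change limit of 1, each library left out, and the longest transcript as length. The members and lists were chosen with earlier results of these data known. The genes named are the 6 members, partner genes called between genotypes, per list the 2 largest rises and falls called in both genotypes, the 3 closest in pattern, and markers; repeating the alternatives for partner genes was chosen after seeing the data. The values of some genes that this rule names are not reported here.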

Additional observations from a re-analysis of the deposited data

Results flagged for a closer look

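The difference of Hbegf between genotypes had opposite signs in the 2 states, while Hbegf rose with IL-4 in both genotypes. Neither difference passed the test (adjusted p = 0.56 in M0 and 0.12 in M2, edgeR). All 3 miR-210 KO libraries lay above all 3 WT libraries in M0 (2.09 to 3.0 against 1.55 to 1.90 CPM) and below all 3 in M2 (57.7 to 76.0 against 78.2 to 104 CPM). The difference between the contrasts was -0.94 on the log2 scale (SE 0.32, unadjusted p = 0.0085 and adjusted p = 0.33 from edgeR), so it did not pass the test after adjustment. The M0 values rest on 15 to 27 counts per library.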

How the results depend on the processing

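No paired analysis was possible because the labels number the samples from 1 to 12 without a number shared between groups, and the numbers 1 to 3 of the columns are not tied to samples. Polarization of the 6 members was called in each genotype under every alternative and in every fit without 1 library. Raising the log2 fold change limit to 1 left 1446 genes called in WT and 1292 in miR-210 KO, and fits without 1 library called 4644 to 5022 and 3387 to 4117. For genotype in M0, the DESeq2 Wald test called 207 genes and 1 member (Pdgfc), no filter 532 and 1, the fit of all 12 libraries 248 genes and the limit of 1 called 27. Leaving out 1 library gave 20 to 302 genes and 0 to 1 members. In M2, the DESeq2 Wald test called 130 genes and 2 members (Pdgfa and Pdgfb), and no filter 360 genes and 3 members. The fit of 12 libraries called 60 and 0, and the limit of 1 called 40 and 0. Leaving out 1 library gave 53 to 215 genes and 0 to 2 members. For the interaction, DESeq2 called 83 genes, no filter 341 genes and 2 members (Pdgfa and Hbegf), and fits without 1 library 0 to 77 genes and 0 members. Apart from the limit of 1, which is stricter by construction, the cause of these shifts was not tested. The sign of Igf1 in M0 turned with no filter (0.0012), and values near 0 turned in fits without 1 library: Igf1 in M0 (-0.0546 to 0.0744), Pdgfa in M0 (-0.00117 to 0.218), and the interactions of Igf1 (-0.115 to 0.0096) and Vegfb (-0.0626 to 0.228). Levels per length were higher with the longest transcript, a shorter length by construction, and the order then changed: Pdgfc stood above Vegfb in M2, Pdgfa above Pdgfc in WT M0, and Pdgfc above Vegfb and Pdgfb in miR-210 KO M0. Depth limits Hbegf, Flt1, Nrg1 and Fgf2 in M0, and Vegfb and Igfbp6 in M2.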
